A study of Rattus norvegicus with 6 samples.

Results

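The smooth muscle type contractile genes of myofibroblasts were followed in cardiac fibroblasts treated with pertussis toxin (PTX). The 10 genes were Acta2, Actg2, Tagln, Cnn1, Cnn3, Tpm2, Tpm4, Vcl, Csrp1 and Csrp2, and their probe sets were taken wherever the array annotation named exactly 1 gene. This gave 14 probe sets of 9 genes, out of 8740 probe sets on the array and 4736 genes with a current symbol. Vcl, the gene of vinculin, had no such probe set and was not analysed here. The cells were fibroblasts freshly cultured from ventricles of Sprague-Dawley rats aged 1 to 2 days and given PTX (3 samples) or, as control, water (3 samples) for 24 h. Each sample was read on its own 1-colour Affymetrix array. PTX, a bacterial toxin, inactivates the Gi and Go classes of G protein by ADP-ribosylation; no dose is stated in the labels. The labels do not say whether samples came from separate isolations, so the spread behind the p-values may be technical.

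Fibroblasts that turn into myofibroblasts take on contractile proteins otherwise typical of smooth muscle. The smooth muscle actins form the filaments, tropomyosins lie along them, calponins and transgelin bind and stabilise them, vinculin ties them to adhesion sites, and the cysteine and glycine rich proteins attach to them through LIM domains. Many of these genes are switched on by serum response factor (SRF), which binds a DNA element called the CArG box, with its actin-sensing cofactors downstream of RhoA and with TGF-beta signalling. Cultured cardiac fibroblasts are known to acquire such genes on stiff plastic.

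RefSeq sequence of the promoter was found for 9 of the 10 genes (build GRCr8), the exception being Tagln. The 250 bases before each gene start were searched for the CArG box, which reads the same on both strands. Bases farther upstream and within the genes were not searched. In this window none of the 9 promoters held the full element, as 1.5% of all 33469 promoters did. With 1 mismatch allowed among its 6 inner bases, Acta2 alone of the 9 held it, as did 8.08% of all promoters. The Acta2 promoter is shown because it is the best known regulatory sequence of the myofibroblast state. It covers chr1:241172504-241172753 on the minus strand, and capitals mark the CArG-like elements, which begin 134 and 84 bases before the gene start. The arrays measured no binding there, and a match of letters is not a measured site.
Acta2 promoter: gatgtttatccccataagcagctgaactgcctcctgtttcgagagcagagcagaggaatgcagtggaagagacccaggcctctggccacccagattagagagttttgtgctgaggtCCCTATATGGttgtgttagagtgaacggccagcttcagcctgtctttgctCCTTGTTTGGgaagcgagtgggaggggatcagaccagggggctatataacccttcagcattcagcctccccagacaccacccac

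The 6 arrays had median signals of 63.1 to 68.85, and with 3 arrays a group, their number limits precision. Control replicate 1 stood apart: its Pearson correlation with the other 5 arrays was 0.952 to 0.960, against 0.978 to 0.985 among those 5. Results on the members are therefore given with and without it. Fibroblast markers were bright in both groups, with Col3a1 at 17300.5 ± 1486 in PTX samples and 20222 ± 1932 in controls (SD, n = 3 each). The cultures also held bright cardiomyocyte transcripts. The signals of 16 cardiomyocyte markers summed to 269073 to 302302 in PTX samples and to 308253 to 387177 in controls, without overlap. The top value was that of control replicate 1. The brightest probe sets weigh most in this sum: Myl2 averaged 42453 in PTX samples and 52335 in controls, and Myh7 35533 and 47150. Of 15 tested cardiomyocyte markers, 11 had a negative log2 change and 4 a positive one, or 10 negative without control replicate 1. With limma, 0 of them had an adjusted p under 0.05 either way. For 5 endothelial markers the sums were 164.7 to 262.6 in PTX samples and 176.9 to 332.7 in controls. For 10 macrophage and leukocyte markers they were 4288 to 5430 in PTX samples and 3540 to 3580 in controls, without overlap. Most of that sum came from Lyz2, a lysozyme, which averaged 3445 in PTX samples and 2381 in controls, and Fcgr2b, an Fc receptor, which averaged 612 in PTX samples and 325 in controls. Of 6 tested markers of this list, 4 had a positive log2 change and 2 a negative one, or 1 negative without control replicate 1. Their median was 0.17, or 0.28 without that control. With limma, 0 of the 6 had an adjusted p under 0.05 with all arrays. Without control replicate 1 only Fcgr2b did (adjusted p = 0.0876 with all arrays and 0.00771 without it). The 2 negative ones were the complement genes C1qb and C1qc, at -0.39 and -0.24, or -0.23 and 0.0021 without control replicate 1. The part of these cell types in the results below was not tested. In such bulk samples, fewer cells of a type and less RNA per cell cannot be told apart.

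No member passed the test between PTX and control. Signals were tested as log2(signal + 16) with limma over the 5244 probe sets that passed a filter on low signals, and 13 of the 14 member probe sets, of 9 genes, were among them. Of the 13, 0 had an adjusted p under 0.05 with all 6 arrays and 0 without control replicate 1, and 0 had an unadjusted p under 0.05 either way. In the background, 0.0763% of all tested probe sets passed with all arrays and 2.21% without control replicate 1, and 12.6% and 15.2% had an unadjusted p under 0.05. The smallest adjusted p of a member was 0.418 with all arrays and 0.350 without that control. The members' median log2 change was -0.11, with 9 negative and 4 positive, against a median of -0.02 over all tested probe sets, 52.9% of them negative. Without control replicate 1 the members' median was -0.08, again with 9 negative and 4 positive, and that of all tested probe sets -0.01, with 52.3% negative.

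**Figure D1:**
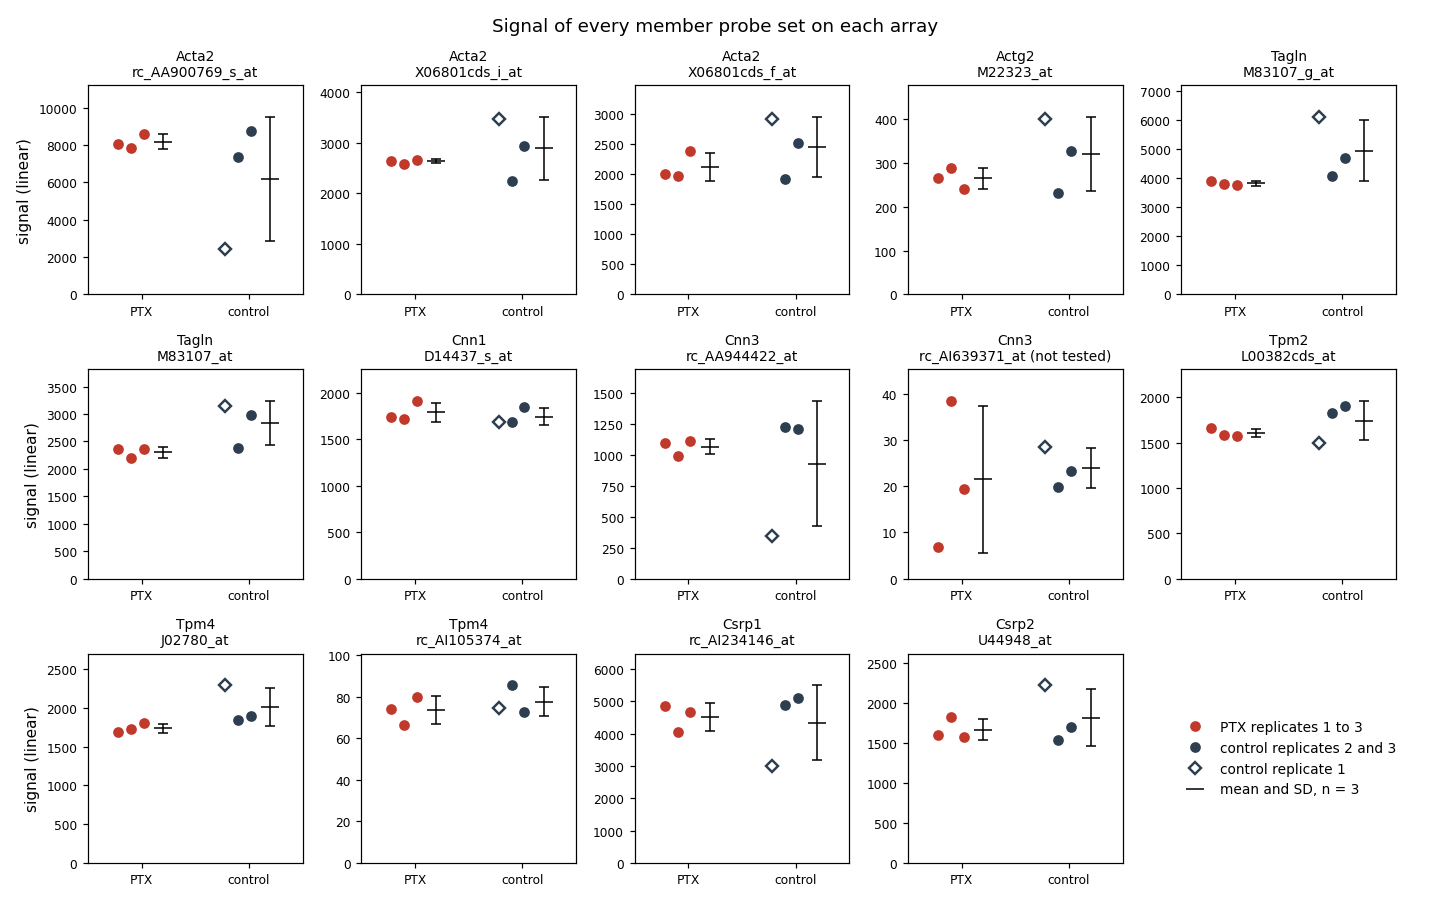
Signal (linear, 1 panel per probe set with its own axis from 0) on each PTX array (left) and each control array (right), with replicates 1 to 3 of a group side by side. The open diamond is control replicate 1 and the bars give mean and SD (n = 3). In the 13 tested panels PTX samples lie close together, and control replicate 1 is the highest or lowest array in 12 of these. In the untested panel, Cnn3 on rc_AI639371_at, PTX samples range from 6.8 to 38.4.

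Acta2, which encodes smooth muscle alpha-actin, the defining protein of myofibroblasts, was read by 3 probe sets, and their directions with all 6 arrays differed. On rc_AA900769_s_at the signals were 8086, 7833 and 8616 in PTX samples and 2458, 7359 and 8763 in control replicates 1, 2 and 3. The groups overlapped, and the 1 low value was that of control replicate 1. The log2 change was 0.59 ± 0.42 (SE; limma adjusted p = 0.541), a 1.51-fold higher value with a 95% interval of 0.767 to 2.96. Without control replicate 1 it was 0.03 ± 0.11 (limma adjusted p = 0.936), and the interval narrowed to 0.864 to 1.20 fold.

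The coding-sequence probe sets of Acta2 had the opposite pattern on that control. On X06801cds_i_at the signals were 2644, 2586 and 2664 in PTX samples and 3476, 2246 and 2944 in controls. On X06801cds_f_at they were 2005, 1978 and 2394 in PTX samples and 2918, 1926 and 2515 in controls. Control replicate 1 was the highest of the 6 arrays on both, and the groups overlapped on both. Their log2 changes were -0.11 ± 0.17 (adjusted p = 0.763) and -0.19 ± 0.18 (adjusted p = 0.634), or 0.03 and -0.06 without control replicate 1. Across the 6 arrays rc_AA900769_s_at had a Pearson r of -0.73 and -0.67 with these probe sets, and across the 5 arrays without control replicate 1 an r of 0.92 and 0.93, as a description of 1 gene on the same arrays. In the maker's naming, _s_at and _f_at probe sets can read several similar transcripts. How far they read other actins was not tested.

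Actg2, the gamma-actin of visceral smooth muscle, was read by M22323_at, with signals of 265.6, 288.9 and 240.9 in PTX samples and 400.3, 232.3 and 327.4 in controls. The PTX values lay within the range of the controls. The log2 change was -0.23 ± 0.21 (limma adjusted p = 0.624). Leaving out control replicate 1 gave -0.06 ± 0.17 (adjusted p = 0.905).

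Tagln, which encodes transgelin, an actin-binding protein of smooth muscle and an early marker of its differentiation, had the lowest adjusted p of the members with all arrays. On M83107_g_at its signals were 3908, 3785 and 3750.3 in PTX samples and 6091, 4057 and 4677 in controls. On M83107_at they were 2359, 2189 and 2354 in PTX samples and 3138, 2373 and 2975 in controls. Every PTX sample lay below every control on both probe sets, on the second by a small margin, but both probe sets come from the same transcript record and are not independent. The log2 changes were -0.35 ± 0.16 (limma adjusted p = 0.418) and -0.29 ± 0.14 (adjusted p = 0.438), which is 21.6% and 18.0% lower in PTX samples. The 95% intervals ran from 0.606 to 1.01 fold and from 0.654 to 1.03 fold. Without control replicate 1 the log2 changes were -0.19 ± 0.10 (adjusted p = 0.417) and -0.21 ± 0.12 (adjusted p = 0.453), and without control replicate 2 they were -0.48 and -0.41 (adjusted p = 0.364 for both).

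Cnn1, calponin of differentiated smooth muscle, an inhibitor of actin-activated myosin, was close to level across the 6 arrays. On D14437_s_at it had 1745, 1726 and 1912 in PTX samples and 1690, 1693 and 1849 in controls. The groups overlapped, with a log2 change of 0.04 ± 0.12 (limma adjusted p = 0.889). Leaving out control replicate 1 gave 0.02 ± 0.11 (adjusted p = 0.957). The 95% interval with all arrays was 0.850 to 1.24 fold.

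Cnn3, the acidic calponin, which is also made outside muscle, had 1099, 996.2 and 1110 in PTX samples and 347.7, 1230.1 and 1213 in controls on rc_AA944422_at. As on the rc_ probe set of Acta2, the low control was replicate 1. The log2 change was 0.40 ± 0.44 with all arrays (limma adjusted p = 0.686) and -0.19 ± 0.11 without that control (adjusted p = 0.448), so its direction turned, and the 3 PTX values then lay below both remaining controls. The second probe set of Cnn3, rc_AI639371_at, was the member left out of the test for low signal. It had 6.8, 38.4 and 19.4 in PTX samples and 28.5, 19.9 and 23.2 in controls, with overlapping groups.

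Tpm2, beta-tropomyosin, which is typical of muscle, had 1661, 1583 and 1572 in PTX samples and 1497, 1825 and 1900.3 in controls on L00382cds_at. The groups overlapped through control replicate 1 alone. The log2 change was -0.11 ± 0.13 (limma adjusted p = 0.711), and without that control -0.21 ± 0.10 (adjusted p = 0.350), with a 95% interval of 0.740 to 1.01 fold.

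Tpm4, a tropomyosin of non-muscle and smooth muscle cells, had 1684, 1720.2 and 1803 in PTX samples and 2288, 1847 and 1892 in controls on J02780_at. All PTX samples lay below all controls. The log2 change was -0.20 ± 0.13 (limma adjusted p = 0.507). With control replicate 1 left out it was -0.11 ± 0.10 (adjusted p = 0.655). On the dimmer rc_AI105374_at, Tpm4 had 73.9, 66.5 and 79.9 in PTX samples and 74.7, 85.4 and 72.4 in controls, with overlapping groups and a log2 change of -0.06 (adjusted p = 0.887).

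The LIM proteins bind actin filaments and alpha-actinin and occur in the nucleus as well. Csrp1 had 4859, 4041 and 4672 in PTX samples and 2999, 4887 and 5118 in controls on rc_AI234146_at. Control replicate 1 was again the lowest array, and the log2 change was 0.10 ± 0.21 (limma adjusted p = 0.847), or -0.15 ± 0.11 without it (adjusted p = 0.557), with all PTX values then below both controls. Csrp2, first known as the LIM protein of smooth muscle, had 1604, 1828 and 1579 in PTX samples and 2223, 1533 and 1702 in controls on U44948_at. The groups overlapped, and the log2 change was -0.11 ± 0.16 (adjusted p = 0.768), or 0.04 ± 0.11 without control replicate 1 (adjusted p = 0.890).

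The coefficient of variation of the 13 tested probe sets had a median of 5.70% among PTX samples (1.55% to 11.0%) and 20.3% among controls (5.23% to 54.2%). Over all tested probe sets the medians were 11.0% in PTX samples and 20.4% in controls. The members were mostly bright, so these medians compare unlike signals. All tested members but Actg2 and Tpm4 on rc_AI105374_at lay above the 86th percentile of mean signal on the array. Whether the spread of the members differed from that of equally bright probe sets was not tested. Control replicate 1 was the highest array for 7 member probe sets and the lowest for 5, that is at an extreme for 12 of 13, against 65% of all tested probe sets. The other 5 arrays were at an extreme for 1 to 6 of the 13.

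The side on which control replicate 1 lay mostly followed the kind of probe set. Names starting with rc_ mark probe sets designed from the reverse complement of a deposited expressed sequence tag. All 4 such tested members (Acta2, Cnn3, Tpm4 and Csrp1) were lower on control replicate 1 than on the mean of the other controls, with log2 differences of -1.70 for Acta2, -1.77 for Cnn3, -0.06 for Tpm4 and -0.73 for Csrp1. Of the 9 others, 7 were higher on it, by 0.24 to 0.51, the exceptions being Cnn1 (-0.07) and Tpm2 (-0.31). The same split was present on the whole array, where 60.6% of 2284 tested rc_ probe sets and 35.5% of 2960 others were lower on that control. Acta2 and Tpm4 were read by both kinds of probe set. For Acta2 the kinds lay on opposite sides, the others having 0.43 and 0.40. For Tpm4 the other probe set had 0.29. On its rc_ probe set, control replicate 1 (74.7) lay between the other controls (85.4 and 72.4). The dim, untested rc_ probe set of Cnn3 was higher on control replicate 1, by 0.25.

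**Figure D2:**
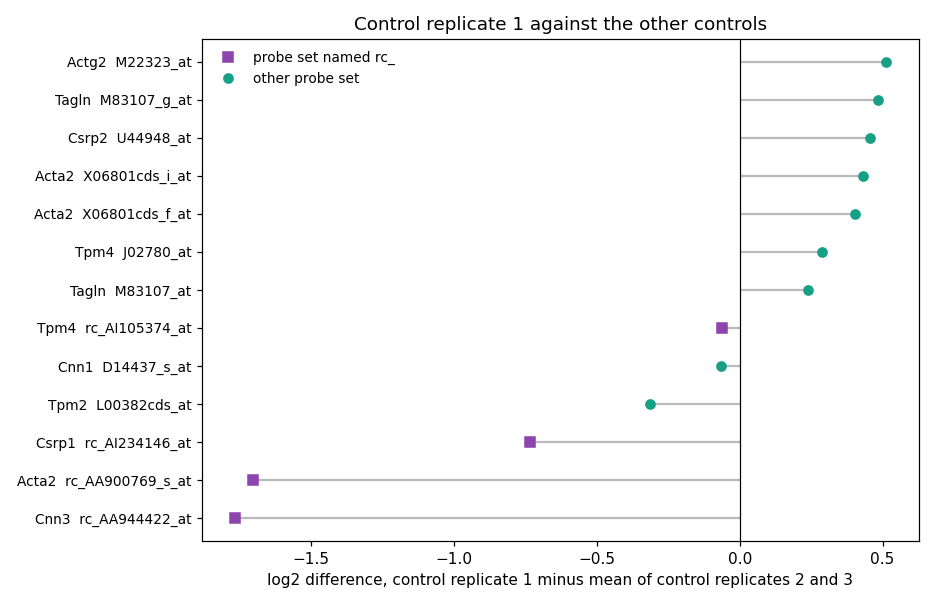
Log2 difference of control replicate 1 from the mean of control replicates 2 and 3 (x axis) for the 13 tested member probe sets. Purple squares, the probe sets named rc_, lie at or below -0.06, and 7 of the 9 green circles, the other probe sets, lie between 0.24 and 0.51.

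Among the 9 member probe sets not named rc_, 8 had a negative log2 change with PTX (88.9%), against 65.2% of all such probe sets, with medians of -0.19 and -0.10. Among the 4 named rc_, 1 was negative (25%), against 36.9% of all such probe sets. Without control replicate 1 these were 6 of 9 (66.7%) against 59.8%, and 3 of 4 (75%) against 42.6%.

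The PTX and control values did not overlap for 3 of the 13, all lower with PTX: the 2 Tagln probe sets and Tpm4 on J02780_at. This is 23.1% of the members, against 10.6% of all tested probe sets that were lower without overlap; 0 members and 12% of all were higher without overlap. Without control replicate 1, the count was 6 of 13 (46.2%), those 3 with Cnn3 on rc_AA944422_at, Tpm2 and Csrp1, against 15.8% of all tested probe sets, and 0 were higher without overlap, against 16.9%. None of the 6 passed limma's test, with log2 changes of -0.21 to -0.11.

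**Figure D3:**
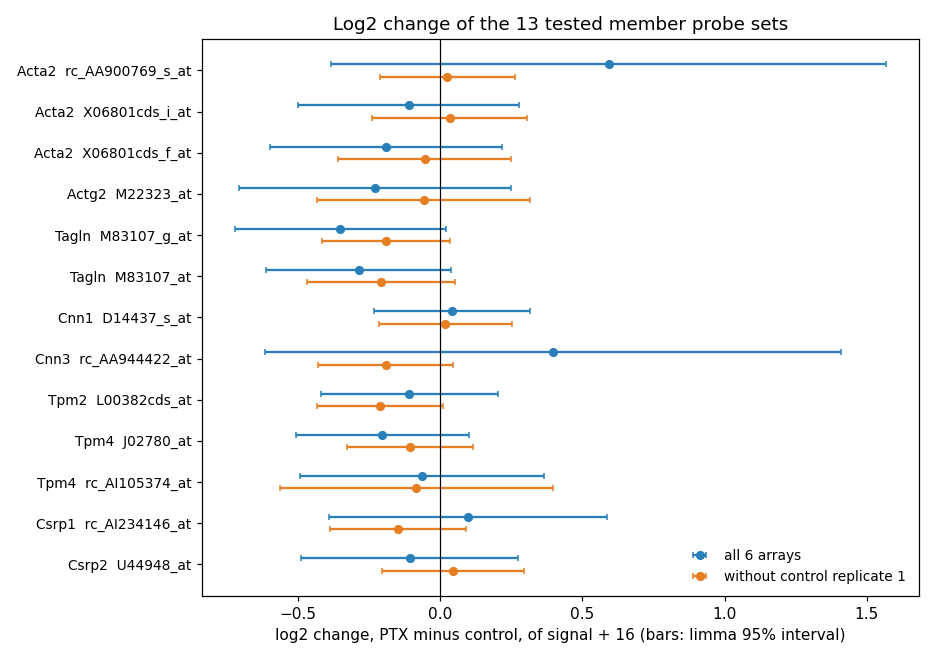
Log2 change of signal + 16, PTX minus control (x axis), of the 13 tested member probe sets with limma's 95% interval, with all 6 arrays (blue) and without control replicate 1 (orange). Every interval includes 0. The changes range from -0.35 to 0.59 with all arrays and from -0.21 to 0.04 without control replicate 1.

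The intervals set what size of change the arrays leave room for, probe set by probe set and without adjustment for their number. With all arrays, those of the 9 probe sets not named rc_ stayed within 0.606 to 1.24 fold, while those of the rc_ probe sets of Acta2 and Cnn3 reached 2.96 and 2.66 fold. Without control replicate 1 all 13 stayed within 0.676 to 1.31 fold. These are the outermost bounds over probe sets, and single intervals, given above for several members, were narrower. The bounds without control replicate 1 may be too narrow, since that array was dropped for differing from the others in these same data. If samples share an isolation, the intervals need not cover the spread between cultures. A missed threshold does not show that levels were equal.

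The genes most like Acta2 were also sought by correlation. Over the 6 arrays, the log2 values of rc_AA900769_s_at correlated best with those of Elovl5, Ldb3, Azi2, Mrps6 and Eef1a1 (Pearson r = 0.997, 0.997, 0.995, 0.995 and 0.995). That choice rests mainly on control replicate 1, the 1 outlying value of this probe set. Over the 5 arrays without it, the best were Rab8b, Nr0b2, Cpsf2, Ykt6 and Scamp1 (r = 0.992, 0.991, 0.991, 0.989 and 0.988). The lists shared 0 genes. Both lists hold the highest r picked from all tested probe sets of other single genes, over few arrays. What r such a pick would reach among unrelated genes was not tested.

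The other contractile genes held no passing member either. Of 15 further actin, tropomyosin, myosin and smooth muscle genes with a tested probe set, each read by its brightest one, 0 passed, 11 were negative, and the median log2 change was -0.09. The corresponding median was -0.11 for the 9 member genes and -0.01 for all 3150 genes. The smallest p was that of Acta1, skeletal alpha-actin, with 5485, 5313 and 5711 in PTX samples and 7456, 7279 and 6513 in controls (log2 change -0.36, limma adjusted p = 0.303; -0.32 without control replicate 1, adjusted p = 0.142). Tpm1, a tropomyosin that cardiac muscle makes in quantity, had a log2 change of -0.40 (adjusted p = 0.438), or -0.17 without that control. Myh11, the myosin heavy chain that defines smooth muscle, is given for its role and had 171.8, 111 and 128.7 in PTX samples and 56.7, 174.5 and 184.8 in controls, with overlapping groups (log2 change 0.10, adjusted p = 0.914). Its direction turned without control replicate 1 (-0.37, adjusted p = 0.410). Of the 7 tested markers of vascular smooth muscle and pericytes, Myh11 included, 0 passed, and their summed signals were 9718 to 10720.1 in PTX samples and 10316 to 13262 in controls, most of it from Des (desmin), which cardiomyocytes also make.

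Genes of actin dynamics and focal adhesions numbered 22 tested, of which 0 passed (median -0.05, 13 negative; median -0.09 without control replicate 1, again with 0 passing). Cav1, the caveolin of membrane caveolae, had 190.3, 163.6 and 173.1 in PTX samples and 353.5, 235.4 and 265.0 in controls, without overlap (log2 change -0.63, limma adjusted p = 0.277; -0.47 without control replicate 1, adjusted p = 0.160). Tln1, talin, the partner of vinculin at integrins, had 1471, 1284 and 1355 in PTX samples and 473.3, 1103 and 870.3 in controls (0.82, adjusted p = 0.336; 0.47 without control replicate 1, adjusted p = 0.0964), on an rc_ probe set.

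Of 18 tested genes of the SRF, RhoA and TGF-beta pathways, several of which regulate smooth muscle genes, 0 passed (median -0.03, 9 negative), and without control replicate 1 only Tgfb3 did. Tgfb3, a TGF-beta ligand, had 830.4, 635.2 and 773.4 in PTX samples and 1390.1, 1362 and 1091 in controls on its brightest probe set (log2 change -0.77, limma adjusted p = 0.184; -0.70 and 0.0343 without control replicate 1). Among 13 myofibroblast matrix genes 0 passed (median 0.06, 6 negative; median 0.02 without control replicate 1). Eln, elastin, which smooth muscle cells and myofibroblasts make, had 3118, 2064 and 2991 in PTX samples and 5318, 4535 and 4688 in controls (-0.85, adjusted p = 0.184), and was the only gene of that list to pass without control replicate 1 (-0.78, adjusted p = 0.0341). Postn, periostin of activated fibroblasts, had positive log2 changes on an rc_ probe set, 1.07 (adjusted p = 0.274), or 0.79 when control replicate 1 was left out (adjusted p = 0.0918). Of 11 tested fibroblast markers 0 passed (median -0.20, 6 negative), and without control replicate 1 (median -0.15) 1 passed in each direction. Lum, lumican of the collagen matrix, was the higher one, with a log2 change of 1.097 (adjusted p = 0.236), or 0.74 without that control (adjusted p = 0.00646). Thy1, a fibroblast surface glycoprotein, was the lower one, with -0.97 (adjusted p = 0.0743), or -0.95 without that control (adjusted p = 0.00771). Whether these genes differed from the members was not tested.

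**Figure D4:**
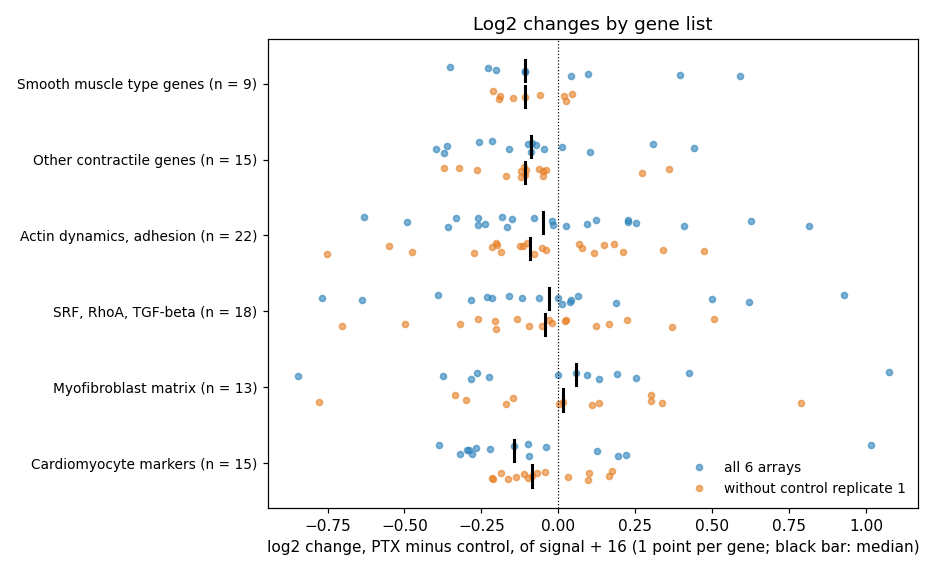
Log2 change of signal + 16, PTX minus control (x axis), 1 point per gene on its brightest tested probe set, by gene list, with all 6 arrays (blue) and without control replicate 1 (orange); black bars are medians. The smooth muscle type genes span -0.35 to 0.59 with all arrays and -0.21 to 0.04 without control replicate 1, and the medians of the 6 lists drawn lie between -0.14 and 0.06. The fibroblast, endothelial, macrophage and vascular smooth muscle markers are not drawn.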

How the data were processed

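Transcripts were measured in 6 samples, 3 with PTX and 3 with water, grouped by their titles. The authors deposited 1 linear intensity per probe set and array, made with GCOS, Affymetrix software, per the submitters' processing notes; no version or scaling target is stated there, and detection calls were not used. The 2% trimmed means lay between 493 and 495, so no scaling was added. No further columns of per-sample values were present (0), and 0 pairs of arrays were identical.

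Of 8740 probe sets, 7006 had 1 symbol in the platform annotation, 308 several and 1426 none; 6985 symbols were updated through the Entrez identifier with RefSeq's GRCr8 table, used for names, and promoters came from RefSeq too. Probe sets under the 40th percentile of mean log2(signal + 16) were left out of testing. PTX and control were compared with limma 3.58.1 (R 4.3.3; eBayes with an intensity trend), two-sided, Benjamini-Hochberg adjusted over 5244 probe sets, threshold 0.05. Fold changes and intervals are on that scale and understate changes of low signals. Errors are SD of signals and limma's moderated SE. The procedure was tested on simulated data.

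Members and gene lists were chosen with earlier results of these data known. Named are all members, and from other lists genes among the 4 with the smallest p or the 2 brightest markers. Outside this rule are Myh11, added for its role, and C1qc, given beside C1qb. Alternatives were other pseudocounts (1, 64), filters, normalizations, variance models, array weights, a block for replicate number, removal of a probe set class and of each array. Same-numbered samples did not deviate together (r = -0.09, -0.11 and -0.01), so the numbers were not taken as pairs.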

Additional observations from a re-analysis of the deposited data

How the results depend on the processing

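Over 18 alternative settings, 0 member probe sets passed limma's threshold in any, the smallest adjusted p of a member being 0.288. An unadjusted limma p under 0.05 was reached only without control replicate 2, by 3 probe sets, of Tagln (0.0180 and 0.0185) and Actg2 (0.0453), with adjusted p of 0.364 to 0.421. The members' median log2 change stayed between -0.22, without control replicate 2, and -0.08, with array quality weights. The median of all tested probe sets stayed between -0.05 and -0.003. Whether the members' median differed from it was not tested. Of the tested members, 8 kept their sign throughout. With array quality weights the log2 change turned to 0.047 for Acta2 on X06801cds_i_at, -0.080 for Cnn3 on rc_AA944422_at, -0.11 for Csrp1 and 0.045 for Csrp2, none past the threshold. With single arrays left out the log2 change of Acta2 on rc_AA900769_s_at ranged from 0.03 without control replicate 1 to 0.94 without control replicate 3 (adjusted p = 0.288), and that of Actg2 from -0.43 without control replicate 2 to -0.06 without control replicate 1. Ranges that crossed 0 were -0.28 to 0.033 for Acta2 on X06801cds_i_at, -0.19 to 0.70 for Cnn3, -0.15 to 0.24 for Csrp1, -0.22 to 0.045 for Csrp2 and -0.0056 to 0.083 for Cnn1. The cause was not tested.

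The number of passing probe sets on the whole array, 4 with the settings used, was 2 with a pseudocount of 1, 7 with 64, 2 after quantile normalization, 9 with robust variances, 81 with array quality weights and 8 without the rc_AA799 and rc_AA800 probe sets. It was 0 with the replicate block (552 at an unadjusted p under 0.05) and 0 without an intensity trend (615), by limma. With single arrays left out it ranged from 0 to 116, the highest without control replicate 1; without control replicate 3 it was 29, and 0 without PTX replicate 1, 2 or 3 (360, 375 and 376 at an unadjusted p under 0.05). The replicate block left the count of members at 0 (smallest adjusted p = 0.476). Signals near background carry no lower bound, since detection calls were not used.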

Other observations

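A further 4 probe sets name Acta2 together with Actc1, cardiac alpha-actin, and so entered no result on Acta2. On X80130cds_f_at the signals were 26562, 26201 and 23629 in PTX samples and 37378, 29125 and 26588 in controls (log2 change -0.27, limma adjusted p = 0.450; -0.13 without control replicate 1). On X80130cds_i_at they were 53905, 51761 and 42686 in PTX samples and 91074, 56638 and 49004 in controls (-0.36, adjusted p = 0.494; -0.10 without control replicate 1). On rc_AI104567_g_at they were 26217, 28389 and 25813 in PTX samples and 26332, 21271 and 28588 in controls (0.09, adjusted p = 0.763). The fourth, rc_AI104567_at, was far dimmer, at 126 to 212.5 in PTX samples and 137.3 to 157.3 in controls (0.17, adjusted p = 0.710). Control replicate 1 was the highest array on both X80130 probe sets and on neither of the rc_ ones. Nor was it the lowest on these. Among the controls it was the highest on rc_AI104567_at (157.3) and the middle one on rc_AI104567_g_at (26332).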
